A study of Mus musculus with 12 samples.

Results

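Late CMDMs were compared with classical monocytes, the 2 ends of the path from monocyte to macrophage in the skin lesion of IgE-CAI, an IgE-mediated chronic allergic inflammation of mice. The comparison holds 6 of the 12 bulk RNA-seq libraries of the series, 3 labelled Late CMDM (the Ly6Clo PD-L2hi fraction, CMDM standing for classical monocyte-derived macrophage) and 3 labelled Classical mono (Ly6Chi PD-L2lo), and it covers all genes. WT BALB/c mice had been given 300 μg of anti-TNP IgE intravenously and challenged on the next day with 10 μg of TNP-conjugated ovalbumin in the right ear. Both fractions were sorted from the ears on day 5 after the challenge, so that they shared the strain, genotype, treatment and time and were set apart by the gate. The number of cells sorted is given only as a range for all libraries, not for each fraction. The gate took CD45+ CD11b+ Siglec-F- Ly6G- cells and then divided them by surface Ly6C and PD-L2, the study's sorting methods add F4/80+ to the definition of these Mo-Mac lineage cells, and each library started from between 5000 and 80000 cells. The remaining libraries, 3 Early CMDM (Ly6Chi PD-L2hi) and 3 Resident-like (Ly6Clo PD-L2lo), entered the same model. They share its filter, its normalization and its estimate of the spread, and are otherwise used only for levels given side by side. The labels do not say whether the libraries of a fraction came from separate animals, and the age of the mice is not given in the labels. The p-values therefore measure the spread between libraries within the 4 fractions, which may be technical.

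Classical monocytes leave the blood through the chemokine receptor CCR2 and enter inflamed tissue, where they can become macrophages under the local cytokines. On this path they lose surface Ly6C and the adhesion molecules used to leave vessels, and they gain F4/80, scavenger receptors and a large lysosomal system for the uptake and breakdown of dead cells. IL-4 and IL-13, acting through STAT6, drive the alternatively activated state that is marked by arginase 1, RELMα, CD206 and PD-L2.

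Total counts lay between 12537178 and 16084234 in late CMDM libraries and between 15400638 and 17599360 in classical monocyte libraries. Genes of other cells moved with the comparison, as given by the plot of marker sums. The 12 fibroblast markers summed to between 3701 and 6528 CPM (counts scaled to the TMM-normalized size of each library) in classical monocytes and between 578 and 628 CPM in late CMDMs, and the 18 T cell, NK and ILC markers to between 522 and 695 CPM against 103 to 119 CPM. The 10 plasmacytoid dendritic cell genes, a list chosen after the values were seen, summed to between 1670 and 3039 CPM in classical monocytes and between 383 and 414 CPM in late CMDMs, and *Siglech* of this list had 395, 209 and 276 CPM against 41.2, 43.5 and 26.5 CPM. The 12 endothelial markers went the other way, with 453 to 595 CPM in late CMDMs and 135 to 184 CPM in classical monocytes. The keratinocyte sums of late CMDMs lay within the range of classical monocytes, at 4316 to 5148 CPM in late CMDMs and 2575 to 5575 CPM in classical monocytes. Fibroblasts, endothelial cells and keratinocytes lack CD45, which the sort required. The part of these cells in the results was not tested, and in bulk libraries fewer cells of a type and less RNA per cell cannot be told apart. The summed CPM of 10 genes shared by leukocytes was also lower in late CMDMs, from 2471 to 2815 CPM, than in classical monocytes, from 4444 to 4781 CPM. Scaling by these genes raised the log2 fold change of the median gene by 0.785, and the calls under this leukocyte scale are given for each list that turned from more lower to more higher calls.

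**Figure D1:**
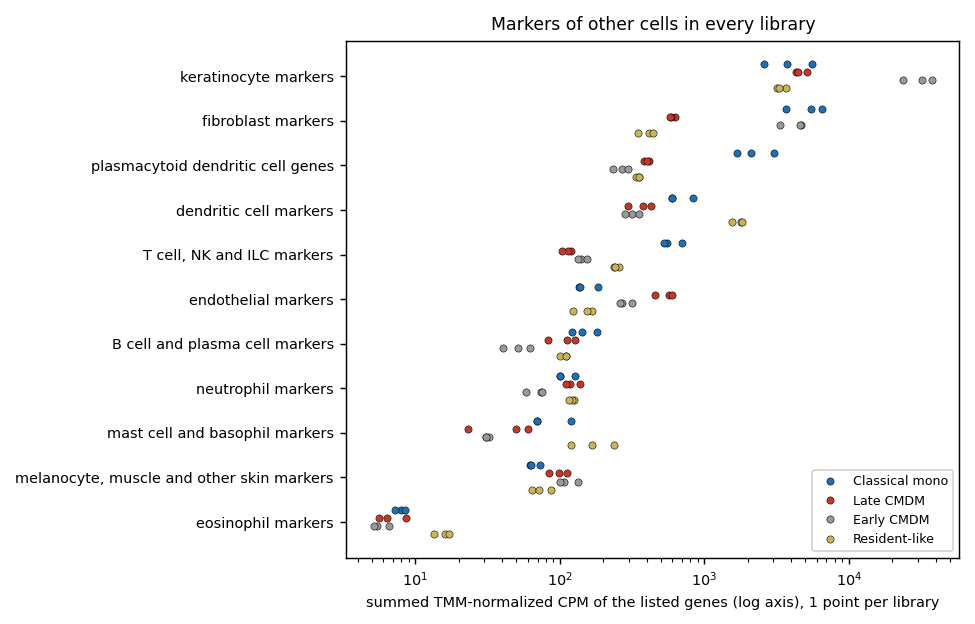
Summed TMM-normalized CPM of marker genes of other cells (log axis), 1 point per library, with the 4 fractions in 4 colours. The fibroblast, plasmacytoid dendritic cell and T cell, NK and ILC sums of the 3 classical monocyte libraries lie above those of the 3 late CMDM libraries, and the endothelial sums lie below.

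The genes behind the gate followed the labels. *Ly6c2*, which encodes Ly6C (chromosome 15, 75108158 to 75111970 of GRCm38), had 21.98, 18.8 and 16.6 CPM in the 3 late CMDM libraries and 607, 490 and 380 CPM in the 3 classical monocyte libraries. The PD-L2 gene *Pdcd1lg2* (chromosome 19, 29410919 to 29471161), had 32.3, 33.4 and 30.7 CPM against 13.2, 13.1 and 16.2 CPM. The fractions did not overlap in either gene. Because the cells were sorted on these proteins, the log2 fold changes of -4.69 (SE 0.17) and 1.18 (SE 0.13) describe the sort and are no finding. The contrast was wide for Ly6C and narrow for PD-L2 at the RNA level. The Ly6C paralog *Ly6c1*, with which *Ly6c2* could share reads, had 30.7, 28.0 and 30.4 CPM against 918, 688 and 519 CPM.

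*Adgre1*, which encodes F4/80, a protein in the definition of the sorted cells (chromosome 17, 57358691 to 57483527), had 214, 198 and 192 CPM in late CMDMs and 74.4, 80.95 and 98.7 CPM in classical monocytes, with no overlap, and is given as a description. *Ccr2*, which was not sorted on (chromosome 9, 124101950 to 124113557), had 110, 98.1 and 113 CPM against 363, 355 and 453 CPM and was lower in late CMDMs by a log2 fold change of -1.87 (SE 0.15, adjusted p = 1.28e-07). *Fcgr1*, which encodes the macrophage marker CD64, had 78.0, 64.2 and 75.0 CPM against 82.2, 60.3 and 121 CPM and was not called (log2 fold change -0.28, adjusted p = 0.389). *Itgam*, which encodes the gate's CD11b, was not called either (-0.16, adjusted p = 0.539), and with the leukocyte genes as the scale both turned to higher calls (0.51 and 0.64). Of the markers outside the gate, the macrophage markers *Mertk* and *C1qa* were higher in late CMDMs, and the monocyte markers *Ccr2*, *Vcan* and *Plac8* were lower. *Ly6g* and *Siglecf*, the genes of the excluded markers, stayed at or below 10 counts in each of the 6 libraries.

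**Figure D2:**
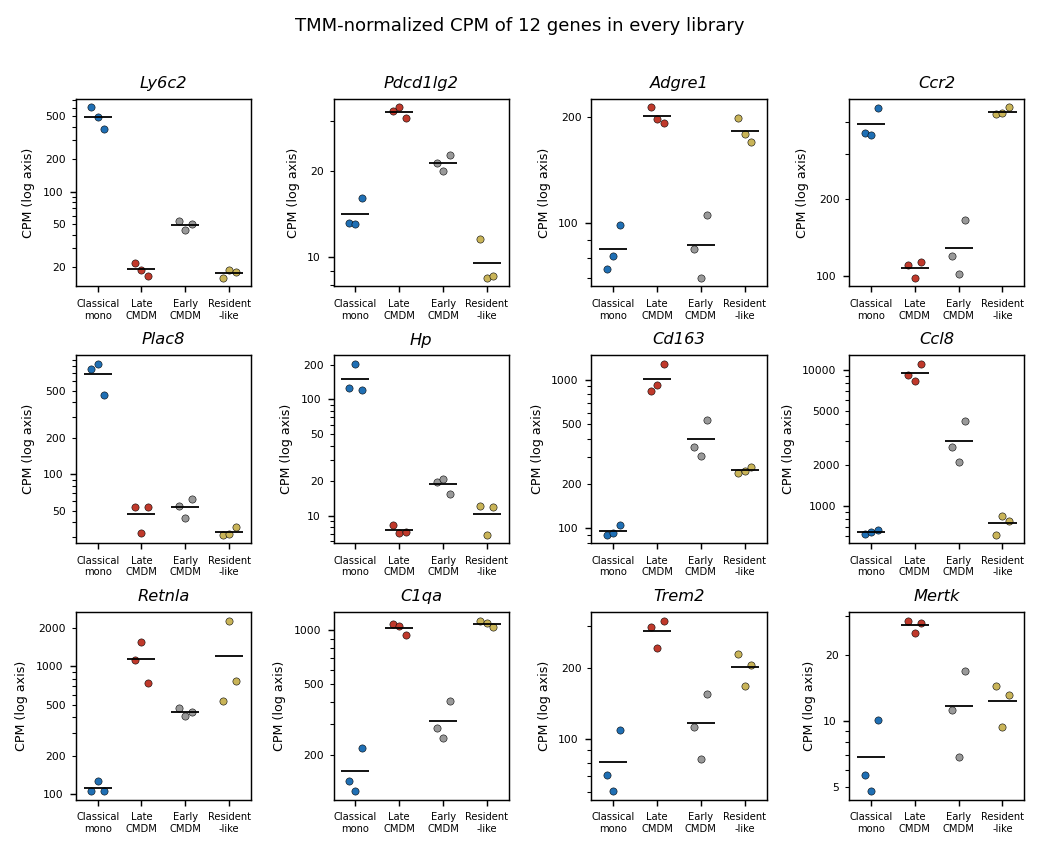
TMM-normalized CPM (log axis) of 12 genes in every library of the 4 fractions, with a line at the mean of 3 libraries. *Ly6c2*, *Ccr2*, *Plac8* and *Hp* are lower in the late CMDM libraries than in the classical monocyte libraries and the other 8 genes are higher, with no overlap.

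Of the 22118 genes tested, 4000 were called higher in late CMDMs, or 18.1%, and 3869 were called lower, or 17.5% (edgeR quasi-likelihood test, Benjamini-Hochberg adjusted p under 0.05). The genes called lower reached further. 729 genes were at least 4-fold lower and 159 at least 16-fold lower, whereas 340 were at least 4-fold higher and 17 at least 16-fold higher. The 3 libraries of late CMDMs lay above the 3 of classical monocytes in 3865 of the genes called higher and below them in 3754 of the genes called lower. Over all genes tested, 23.8% lay above without overlap and 23.9% below. The split rested on the scaling of the libraries: with the leukocyte genes as the scale, 92.6% of the genes called were higher, compared with 50.8% under TMM.

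**Figure D3:**
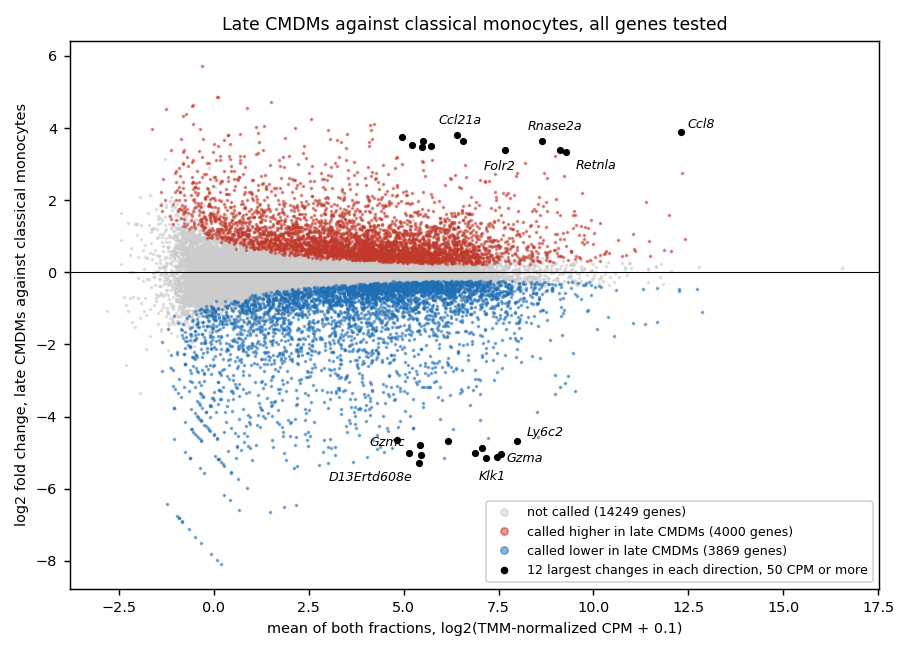
Log2 fold change of late CMDMs against classical monocytes for the 22118 genes tested, against the mean of both fractions as log2(CPM + 0.1). Red and blue points are the 4000 genes called higher and the 3869 called lower under TMM, and black points are the 12 genes with the largest changes in each direction among those at 50 CPM or more. The blue cloud reaches further from 0 than the red one.

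The largest rise among well-expressed genes was that of *Ccl8*, a chemokine that attracts CCR8+ and CCR2+ cells (chromosome 11, 82115185 to 82116799). It had 9067, 8202 and 11040 CPM in late CMDMs and 615, 635 and 657 CPM in classical monocytes, a log2 fold change of 3.89 (SE 0.22, adjusted p = 5.12e-09), and it took from 0.839% to 1.11% of all counts of the late CMDM libraries. *Rnase2a*, a ribonuclease of the eosinophil-associated family, had 671, 635 and 909 CPM against 57.9, 56.5 and 62.7 CPM. *Fxyd2*, a subunit that modulates the sodium pump, had 218, 179 and 127 CPM against 13.7, 14.6 and 13.5 CPM, and *Chp2*, a calcineurin-like calcium-binding protein, had 76.2, 78.6 and 51.7 CPM against 6.09, 5.83 and 6.08 CPM. These 4 genes had log2 fold changes between 3.52 and 3.89 and no overlap between fractions. The chemokine *Ccl12*, the lectin *Cd209b*, the scavenger receptor *Cd163*, the folate receptor *Folr2* and the secreted *Retnla* also belonged to the 12 largest rises. The other 3 were *Ccl21a*, *Ccl21b* and *Lyve1*. *Lyve1* is expressed by lymphatic endothelium and by some macrophages, and *Ccl21a* and *Ccl21b* by lymphatic endothelium, and *Ccl21a* with 182, 186 and 105 CPM against 8.56, 12.9 and 12.2 CPM and *Lyve1* with 58.7, 77.8 and 36.5 CPM against 4.99, 3.41 and 4.46 CPM stand in the endothelial marker list. *Ccl21a* and *Ccl21b* are almost the same in sequence, and how the counting divided their reads is uncertain.

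The 12 largest falls held *Ly6c2* and, for the most part, genes that are not in the list of classical monocyte genes. *Gzma*, *Gzmb*, *Gzmc*, *Nkg7*, *Il2rb*, *Cd7* and *Cd27* are known for cytotoxic and other lymphocytes. *Gzma* had 10.7, 10.3 and 8.83 CPM against 432, 245 and 357 CPM, and *Nkg7* had 2.55, 3.34 and 3.03 CPM against 101.25, 73.7 and 76.0 CPM. *Klk1*, *Spib* and *D13Ertd608e* also belonged to these falls, of which *Spib*, a transcription factor of B cells and plasmacytoid dendritic cells, had 11.3, 10.8 and 11.4 CPM against 526, 225 and 344 CPM. The sums of lymphocyte and plasmacytoid dendritic cell genes moved the same way, as given above.

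Among 19 gene lists of function, the tissue macrophage, oxidative phosphorylation and lysosome lists had the largest excess of higher over lower calls, and the classical monocyte, antigen presentation and interferon-stimulated lists the largest excess of lower calls. A gene could stand in several lists. No list was tested, and the counts are read beside the shares of 18.1% and 17.5% over all genes.

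**Figure D4:**
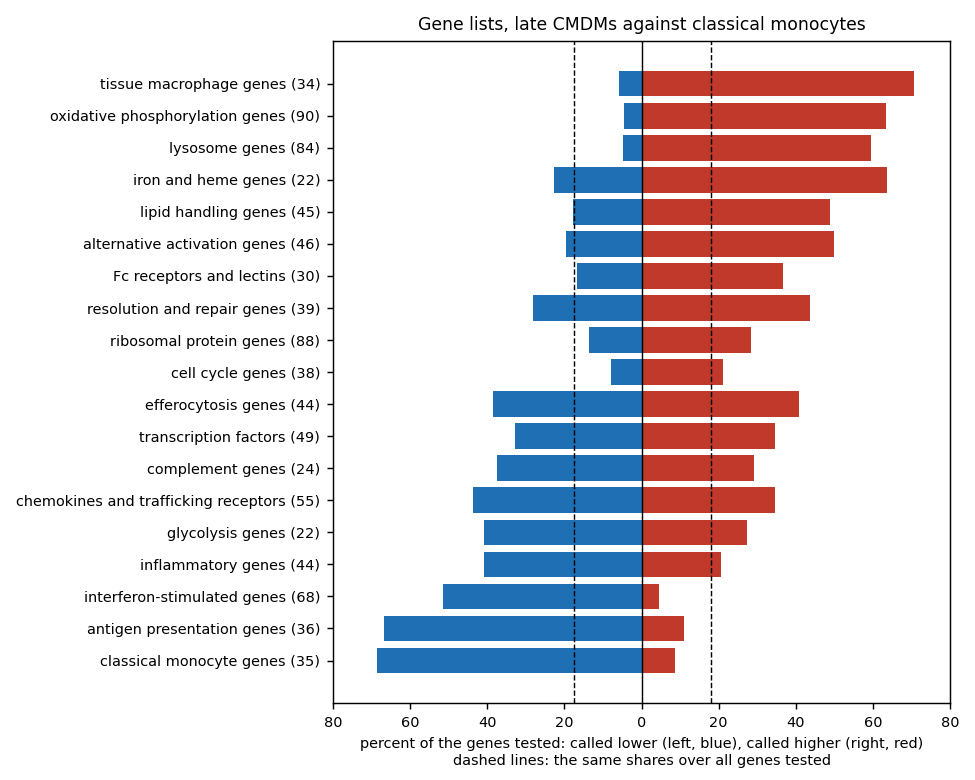
Percent of the tested genes of each list called higher (right, red) or lower (left, blue) in late CMDMs under TMM, with the number tested in brackets. Dashed lines give the shares over all genes, 18.1% higher and 17.5% lower. The interferon-stimulated, antigen presentation, inflammatory, chemokine and trafficking, complement and glycolysis lists have more lower than higher calls here and turned to more higher than lower calls when libraries were scaled by leukocyte genes, a scaling that raised the median gene.

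Of the 35 classical monocyte genes tested, 24 were lower in late CMDMs and 3 were higher, with a median log2 fold change of -1.44, compared with -0.0135 over all genes. Among the 15 surface and adhesion genes 13 were lower and none was higher. Of the 20 secreted and granule genes 11 were lower. *Hp*, which encodes the hemoglobin-binding protein haptoglobin, had 8.28, 7.05 and 7.15 CPM against 126, 203 and 122 CPM in classical monocytes (log2 fold change -4.33, SE 0.25). *Plac8* had 54.0, 32.6 and 53.5 CPM against 762, 833 and 458.1 CPM, and *Vcan*, the matrix proteoglycan versican, had 9.96, 9.48 and 17.4 CPM against 81.7, 140 and 110 CPM. *Mcemp1*, a membrane protein of myeloid cells, fell by 3.29 on the log2 scale. The 3 genes called higher were *F13a1*, which encodes the A subunit of coagulation factor XIII, with a log2 fold change of 1.06, the calcium-binding protein gene *S100a6* with 0.84 and *Anxa1*, which encodes annexin A1, with 0.36. Without *Ly6c2* and its paralog *Ly6c1* 22 of 33 members were lower and 3 higher. With the leukocyte genes as the scale the list still had more lower than higher calls, 17 against 9. Under that scale the surface and adhesion genes had 11 lower and 2 higher calls, whereas the secreted and granule genes turned to 6 lower and 7 higher.

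Of 34 tissue macrophage genes tested, 24 were higher in late CMDMs, 2 were lower and 8 were not called, with a median log2 fold change of 1.31. Without *Adgre1* 23 of 33 were higher. *Cd163*, the receptor for haptoglobin-hemoglobin complexes (chromosome 6, 124304656 to 124330527), had 845, 925 and 1275 CPM in late CMDMs and 91.0, 93.7 and 106 CPM in classical monocytes (log2 fold change 3.39, SE 0.20, adjusted p = 7.33e-09). *Folr2* had 374, 356 and 384 CPM against 36.8, 28.9 and 41.3 CPM. *Stab1*, a scavenger receptor, had 209, 192 and 259 CPM against 32.9, 29.4 and 49.8 CPM. Each of these receptors separated the fractions without overlap. Of the 13 secreted members 11 were higher and none was lower. *Selenop*, the selenium carrier, had 9655, 8157 and 8991 CPM against 1185, 1198 and 1574 CPM, and *Pf4*, a chemokine also made by platelets, had 849, 823 and 1055 CPM against 81.3, 88.7 and 123 CPM. The 2 genes called lower were the fractalkine receptor *Cx3cr1*, with 11.5, 8.45 and 7.21 CPM against 40.2, 56.7 and 35.5 CPM, and the endotoxin co-receptor *Cd14*, with 630, 509 and 523 CPM against 1255, 1667 and 2023 CPM.

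Of 46 alternative activation genes, 23 were higher in late CMDMs and 9 lower, with a median log2 fold change of 0.521. Without *Pdcd1lg2*, whose protein was sorted on, 22 of 45 were higher and 9 lower, with a median of 0.485. The promoters of *Retnla* and of the gate gene *Pdcd1lg2*, both known targets of STAT6, are shown. These genes had the largest rises among members at 10 CPM or more whose promoter holds TTCNNNNGAA. These letters, the spacing bound by STAT6, are in capitals. Each sequence is the RefSeq window of 300 bases, 250 before and 50 after a start site, on the strand of the gene.
Retnla (GRCm38.p6, chr16:48842359-48842658, plus strand): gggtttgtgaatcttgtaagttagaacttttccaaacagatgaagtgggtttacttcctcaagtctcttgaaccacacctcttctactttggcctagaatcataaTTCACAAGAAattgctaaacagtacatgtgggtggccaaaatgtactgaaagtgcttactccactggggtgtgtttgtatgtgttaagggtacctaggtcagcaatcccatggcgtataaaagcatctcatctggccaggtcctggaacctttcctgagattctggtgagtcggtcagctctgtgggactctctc
Pdcd1lg2 (GRCm38.p6, chr19:29410669-29410968, plus strand): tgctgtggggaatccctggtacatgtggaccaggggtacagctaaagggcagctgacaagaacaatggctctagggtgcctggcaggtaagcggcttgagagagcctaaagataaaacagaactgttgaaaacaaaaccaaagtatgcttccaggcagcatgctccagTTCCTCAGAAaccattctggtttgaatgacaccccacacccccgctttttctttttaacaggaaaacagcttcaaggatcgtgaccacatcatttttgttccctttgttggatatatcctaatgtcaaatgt
The motif was searched on both strands. It was in 7 of 45 promoters of the 34 members matched, or 15.6%, and in 6.95% of all 32851 promoters. Among members called higher the share was 15%, in 3 of 20 promoters, and among the other members it was 16%.

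*Retnla*, which encodes RELMα, had 1112, 1543 and 738 CPM in late CMDMs and 106, 127 and 105 CPM in classical monocytes (log2 fold change 3.33, SE 0.50, adjusted p = 0.000403), so that the late CMDM libraries differed among themselves by more than for most genes named. *Arg1*, which encodes arginase 1, had 777, 746 and 977 CPM against 121, 108 and 388 CPM, with the third classical monocyte library above the other two (log2 fold change 2.02, SE 0.46, adjusted p = 0.00571). *Mrc1*, which encodes the mannose receptor CD206, had 1337, 1310 and 1459 CPM against 240, 260 and 399 CPM. *Igf1*, insulin-like growth factor 1, had 430, 382 and 480 CPM against 70.3, 63.1 and 71.0 CPM. The chemokine *Ccl22* had 20.7, 24.7 and 25.4 CPM against 4.55, 3.08 and 2.68 CPM, and *Il10* had 61.3, 49.8 and 53.1 CPM against 24.3, 24.3 and 41.0 CPM. None of these genes overlapped between the fractions. Of the regulators, *Egr2*, a transcription factor induced by IL-4, rose by 1.48 and *Klf4* by 1.03 on the log2 scale. *Stat6* itself was called lower, with 93.1, 91.3 and 96.5 CPM against 107, 109 and 125 CPM (log2 fold change -0.28, adjusted p = 0.0219), a difference that turned to 0.51 with the leukocyte genes as the scale and missed the threshold without late CMDM replicate 1 (-0.27), without late CMDM replicate 2 (-0.26) or without classical monocyte replicate 3 (-0.20). Receptors of the list went both ways. The β-glucan receptor *Clec7a* fell by 1.90 and the decoy receptor *Il1r2* by 1.41 on the log2 scale, whereas the transferrin receptor *Tfrc* was at 268, 273 and 298 CPM against 59.3, 58.5 and 60.2 CPM.

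Of 25 chemokines tested 12 were higher and 8 lower in late CMDMs, and of 17 chemokine receptors 2 were higher and 9 lower. Under the leukocyte scale 16 chemokines were higher and 3 lower, with 6 receptors in each direction, and the difference between the roles was not tested. *Ccl8*, *Ccl12* and *Pf4* led the rise. The monocyte-attracting ligands *Ccl2* and *Ccl7*, named after their values were seen, had 409, 434 and 346 CPM against 141, 134 and 92.7 CPM and 570, 646 and 541 CPM against 204, 154 and 115 CPM, and both bind CCR2, whose gene was lower. *Ccl5*, with 29.8, 18.8 and 19.7 CPM against 308, 206 and 191 CPM, had the largest fall among the 25 chemokines of the list, and T and NK cells are a known source of it. *Ccl11* and *Cxcl12*, known products of fibroblasts, were lower by log2 fold changes of -2.84 and -1.71. Among the receptors *Ccr9* had 12.98, 11.3 and 11.4 CPM against 383, 215 and 262 CPM, and it is one of the plasmacytoid dendritic cell genes whose sum moved. *Fpr2*, a formyl peptide receptor of monocytes and neutrophils, had 3.11, 2.86 and 1.89 CPM against 25.7, 38.5 and 21.4 CPM. The receptor for complement C3a, *C3ar1*, was higher, with 571, 495 and 511 CPM against 178, 159 and 314 CPM. Integrins were mixed as well, with *Itga9* higher by 2.26 and *Itgal*, a leukocyte integrin carried by lymphocytes and monocytes, at 4.46, 6.69 and 7.01 CPM against 62.4, 80.2 and 64.7 CPM. Over all 55 members 19 were higher and 24 lower, with a median of -0.282, which turned to 28 higher and 15 lower, with a median of 0.511, under the leukocyte scale, below the median of 0.772 over all genes. Leaving out the third classical monocyte library gave a median of -0.0423, and leaving out the second one gave -0.459.

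Of 68 interferon-stimulated genes 35 were lower in late CMDMs and 3 higher, with a median log2 fold change of -0.632. Under the leukocyte scale this turned to 10 lower and 17 higher with a median of 0.150, still below the 0.772 of all genes. The promoters of *Bst2* and *Ifi205* are shown. These 2 genes had the largest falls among members at 10 CPM or more whose promoter holds GAAANNGAAA. These letters are the core of the element bound by interferon regulatory factors and ISGF3, here in capitals on either strand.
Bst2 (GRCm38.p6, chr8:71537423-71537722, minus strand): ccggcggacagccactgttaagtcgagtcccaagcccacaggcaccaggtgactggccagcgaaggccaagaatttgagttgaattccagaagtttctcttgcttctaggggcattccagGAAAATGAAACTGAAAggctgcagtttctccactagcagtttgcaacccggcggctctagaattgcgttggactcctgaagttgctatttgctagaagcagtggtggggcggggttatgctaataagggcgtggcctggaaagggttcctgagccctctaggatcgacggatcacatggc
Ifi205 (GRCm38.p6, chr1:174031706-174032005, minus strand): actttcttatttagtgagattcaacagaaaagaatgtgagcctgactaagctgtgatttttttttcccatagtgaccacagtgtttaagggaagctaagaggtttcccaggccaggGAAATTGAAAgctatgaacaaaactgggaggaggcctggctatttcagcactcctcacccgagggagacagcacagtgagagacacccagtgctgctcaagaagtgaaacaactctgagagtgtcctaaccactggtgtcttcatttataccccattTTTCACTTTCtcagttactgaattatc
The *Bst2* window holds 2 overlapping copies. The motif was in 34 of 59 promoters of the 49 members matched, or 57.6%, and in 3.44% of all promoters. It was in 50% of the promoters of members called lower and in 65.5% of those of the other members.

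Falls were called in each role of the list, in 17 of 36 antiviral effectors, 7 of 13 sensors and regulators and 11 of 19 genes of the interferon-γ type. *Ifitm6*, a membrane protein of the interferon-induced transmembrane family, had 7.41, 7.90 and 5.12 CPM in late CMDMs and 74.0, 141 and 39.0 CPM in classical monocytes (log2 fold change -3.63, SE 0.45, adjusted p = 7.69e-05). *Bst2*, which encodes tetherin, had 53.8, 46.9 and 54.1 CPM against 397, 223 and 208 CPM, and *Irf7*, the regulator that amplifies type I interferon, had 60.1, 32.6 and 41.5 CPM against 224, 114 and 196 CPM. *Bst2* stands in the plasmacytoid dendritic cell list, and *Irf7* is known for high levels in these cells. *Mx1*, an antiviral GTPase, had 18.5, 10.6 and 13.3 CPM against 44.6, 20.9 and 38.2 CPM (-1.29, SE 0.32, adjusted p = 0.006). *Gbp9* and *Gbp4*, guanylate-binding proteins whose reads could be shared within the family, fell by 1.61 and 1.38 on the log2 scale. Of the IFIT effectors, *Ifit1*, *Ifit2* and *Ifit3* did not pass the test. *Ifit1* had 12.1, 6.44 and 9.24 CPM against 16.7, 4.84 and 11.4 CPM (-0.25, SE 0.41, adjusted p = 0.671), *Ifit2* had 31.4, 12.3 and 25.1 CPM against 48.4, 11.0 and 35.7 CPM, and *Ifit3* had 9.56, 4.26 and 8.02 CPM against 17.9, 5.77 and 11.5 CPM. The fractions overlapped in all 3 genes, whose differences turned to 0.52, 0.29 and 0.07 under the leukocyte scale, and in each of them replicate 2 was the lowest library of both fractions. The 3 members called higher were *Gbp7* (0.95), the transcription factor *Irf1* (0.39) and *Mndal* (0.51). *Irf1* missed the threshold without late CMDM replicate 1 (0.31) or classical monocyte replicate 2 (0.31), and *Mndal* without late CMDM replicate 1 (0.42), late CMDM replicate 2 (0.46) or classical monocyte replicate 3 (0.40).

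Of 44 inflammatory genes 18 were lower and 9 higher, with a median log2 fold change of -0.440, which was -0.290 without classical monocyte replicate 3. Under the leukocyte scale 18 were higher and 11 lower, with a median of 0.348. *Trem1*, a receptor that amplifies myeloid inflammation, had 16.6, 11.2 and 15.3 CPM in late CMDMs and 207, 295 and 226 CPM in classical monocytes (log2 fold change -4.08, SE 0.19, adjusted p = 8.1e-10). *Il1b* had 274, 220 and 246 CPM against 1022, 1168 and 1269 CPM (-2.23, SE 0.15), and *Ptgs2*, which encodes cyclooxygenase 2, had 44.9, 41.0 and 45.4 CPM against 145, 204 and 317 CPM. The lectin *Clec4e*, which senses dead cells and mycobacteria, had 114, 96.4 and 122 CPM against 426, 599 and 637 CPM. None of these 4 genes overlapped between fractions. Part of the list rose. *Ly96* and *Tlr4*, the chains of the endotoxin receptor, were higher by 1.07 and 0.61 on the log2 scale, while their partner *Cd14* was lower. *Tlr4* missed the threshold without late CMDM replicate 3 (0.52) or classical monocyte replicate 1 (0.49). *Ccl3* had 58.2, 43.9 and 46.5 CPM against 27.1, 23.7 and 21.2 CPM, *Il23a* rose by 1.20, and *Lcn2*, an iron-siderophore-binding protein, had 17.3, 15.99 and 18 CPM against 4.001, 4.34 and 2.01 CPM. *Tnf*, named after its value was seen, had 114, 102 and 95.6 CPM against 58.7, 49.1 and 82.9 CPM and was called higher (0.71, SE 0.16, adjusted p = 0.00219).

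Of 84 lysosome genes 50 were higher in late CMDMs and 4 lower, with a median log2 fold change of 0.472. The promoters of *Ctsd* and *Atp6v1a* are shown. These genes had the largest rises among members at 10 CPM or more whose promoter holds TCACGTGA. These letters are the core of the CLEAR element bound by TFEB and related factors, here in capitals.
Ctsd (GRCm38.p6, chr7:142387778-142388077, minus strand): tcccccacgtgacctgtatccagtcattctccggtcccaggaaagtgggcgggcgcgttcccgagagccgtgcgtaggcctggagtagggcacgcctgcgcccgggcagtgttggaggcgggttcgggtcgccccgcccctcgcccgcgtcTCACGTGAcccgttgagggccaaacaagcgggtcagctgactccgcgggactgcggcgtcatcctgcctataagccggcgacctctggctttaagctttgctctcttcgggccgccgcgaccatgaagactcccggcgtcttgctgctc
Atp6v1a (GRCm38.p6, chr16:44139210-44139509, minus strand): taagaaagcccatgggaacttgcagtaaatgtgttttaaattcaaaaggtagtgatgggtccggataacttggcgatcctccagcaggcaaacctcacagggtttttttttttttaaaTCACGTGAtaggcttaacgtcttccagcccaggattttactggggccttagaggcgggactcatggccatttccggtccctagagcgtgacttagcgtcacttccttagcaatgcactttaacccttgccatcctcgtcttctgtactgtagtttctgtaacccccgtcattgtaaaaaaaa
The motif was in 8 of 82 promoters of the 68 members matched, or 9.76%, and in 0.974% of all promoters, with 10.4% among members called higher and 8.82% among the others.

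Higher calls outnumbered lower ones in every role of the lysosome. Of 49 hydrolases 29 were higher and 3 lower, of 19 membrane proteins and regulators 11 were higher and 1 lower, and of 16 subunits of the V-ATPase, the pump that acidifies the lysosome, 10 were higher and none was lower. *Ctsb* and *Ctsl*, which encode the proteases cathepsin B and L, had 6224, 5382 and 6688 CPM against 1959, 1806 and 2361 CPM and 4136, 3592 and 4976 CPM against 1016, 872 and 1413 CPM. *Ctsd* had 976, 848 and 1140 CPM against 380, 371 and 506 CPM (log2 fold change 1.24, SE 0.15, adjusted p = 7.22e-06). The membrane proteins *Cd63* and *Lamp1* rose by 1.59 and 1.29 on the log2 scale. The widest difference was that of *Atp6v0d2*, a V-ATPase subunit of macrophages and osteoclasts, which had 78.1, 57.9 and 107 CPM against 11.5, 8.30 and 9.20 CPM (3.07, SE 0.30, adjusted p = 5.34e-06), compared with 318, 309 and 315 CPM against 122, 124 and 154 CPM for the ubiquitous subunit *Atp6v1a*. The ganglioside activator *Gm2a* and the metal transporter *Slc11a1* were lower by 0.88 and 0.90.

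Efferocytosis is the clearance of dead cells. Of 44 genes of this list 18 were higher in late CMDMs and 17 lower, with a median log2 fold change of 0.0307. Of 8 bridging molecules that coat dying cells 6 were higher and 1 lower. Of 17 receptors 5 were higher and 8 lower, which turned to 7 higher and 5 lower under the leukocyte scale. Of 19 genes of engulfment and degradation 7 were higher and 8 lower, which turned to 11 higher and 1 lower under that scale. The difference between these roles was not tested, and 3 of the bridging molecules are chains of 1 complex. *C1qa*, *C1qb* and *C1qc*, the chains of complement C1q, lay next to each other on chromosome 4 and had log2 fold changes of 2.66, 2.61 and 2.76, with *C1qa* at 1090, 1060 and 947 CPM against 144, 126 and 220 CPM. *Gas6* and *Pros1*, the ligands of the TAM receptors, had 412, 396 and 373 CPM against 94.4, 93.8 and 80 CPM and 137, 140 and 92.0 CPM against 56.6, 60.1 and 50.3 CPM. *Mfge8*, the bridge to integrins, had 63.8, 72.6 and 66.5 CPM against 67.2, 64.1 and 47.9 CPM and was not called (0.18, SE 0.13, adjusted p = 0.296). Of the TAM receptors, *Mertk* had 28.6, 25.2 and 27.8 CPM against 5.66, 4.78 and 10.1 CPM (1.99, SE 0.31, adjusted p = 0.000188). *Axl*, named after its value was seen, went the other way with 11.0, 13.7 and 9.64 CPM against 51.2, 36.1 and 32.8 CPM (-1.80, SE 0.24), and fibroblasts and dendritic cells also express it. The receptors *Havcr1*, *Havcr2* and *Cd300lf*, which bind phosphatidylserine or other lipids of dying cells, were lower by log2 fold changes of -3.75, -2.02 and -1.85. In the list of complement genes, 7 of 24 were higher and 9 lower, which turned to 13 higher and 4 lower under the leukocyte scale. Among the falls *C1s1*, *C3* and *Serping1*, at -3.08, -1.89 and -3.25, are also known products of fibroblasts, whose markers moved the same way.

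Of 45 lipid handling genes 22 were higher and 8 lower, with a median log2 fold change of 0.284. *Trem2*, a lipid-sensing receptor (chromosome 17, 48346401 to 48354147), had 296, 241 and 315 CPM in late CMDMs and 70.7, 60.6 and 110 CPM in classical monocytes (1.82, SE 0.24, adjusted p = 5.29e-05). *Apoe*, the main apolipoprotein of macrophages, was at 7546, 7488 and 6491 CPM against 3028, 3340 and 5045 CPM, and the cholesterol exporter *Abca1* at 497, 472 and 571 CPM against 181, 203 and 399 CPM. For both genes the third classical monocyte library lay nearest to the late CMDMs. *Abca1* (0.98, adjusted p = 0.0193) missed the threshold without late CMDM replicate 3 (0.89), classical monocyte replicate 1 (0.77) or classical monocyte replicate 2 (0.82). The exporter *Abcg1* had 146, 108 and 138 CPM against 120, 97.7 and 128 CPM and was not called (0.18, adjusted p = 0.477), nor was *Hilpda*, a lipid droplet protein (0.11, adjusted p = 0.622). *Fabp5*, a fatty acid carrier that keratinocytes also make, had 520, 430 and 648 CPM against 173, 152 and 146 CPM. Of 19 genes of lipid storage and breakdown 12 were higher and 1 lower. Of 13 genes of uptake and sensing 3 were higher and 5 lower, or 7 and 2 under the leukocyte scale, and the 5 included the oxidized lipoprotein receptors *Olr1* and *Msr1* (-1.76 and -1.38).

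Iron and heme genes rose in 14 of 22 and fell in 5. Beside *Cd163* and *Tfrc*, the heme oxygenase gene *Hmox1*, named after its value was seen, had 1083, 1022 and 1046 CPM against 307, 393 and 343 CPM (1.60, SE 0.14). The metal importer *Slc39a8* rose by 1.72. The red pulp macrophage factor *Spic* was lower, with 18, 13.3 and 15.7 CPM against 28.1, 41.6 and 34.0 CPM. The fall of *Hp* and the rise of *Cd163* set the ligand and its receptor in opposite directions.

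Of 30 Fc receptors and lectins 11 were higher and 5 lower. No Fc receptor was called lower, and 4 of 10 were higher, among them *Fcgr3*, an activating receptor for IgG, with 487, 439 and 489 CPM against 162, 173 and 230 CPM, and *Fcgrt*, the neonatal Fc receptor, with 539, 507 and 700 CPM against 184, 183 and 207 CPM. *Fcrls*, an Fc receptor-like protein of tissue macrophages, had 44.6, 41.4 and 24.3 CPM against 6.28, 6.98 and 6.80 CPM. The lectins *Cd209b*, *Cd209f* and *Cd209g*, paralogs on chromosome 8 whose reads could be shared, had log2 fold changes of 3.47, 4.08 and 3.95, and in all 3 the third late CMDM library was the lowest of its fraction, with *Cd209f* at 34.6, 45.7 and 17.5 CPM. *Clec12a* and *Clec4d*, lectins of monocytes and granulocytes, fell by 2.54 and 2.23 on the log2 scale.

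Of 36 antigen presentation genes 24 were lower in late CMDMs and 4 higher, with a median log2 fold change of -0.521, which turned to 9 lower and 14 higher with a median of 0.267 under the leukocyte scale. Without *Pdcd1lg2*, 24 of 35 were lower and 3 higher. Of 12 genes of MHC class II and its machinery 10 were lower, and 6 were lower and 1 higher under the leukocyte scale. *H2-Ab1* had 1594, 1555 and 1148 CPM against 3434, 3270 and 4788 CPM (-1.42, SE 0.16, adjusted p = 2.93e-06), *H2-Aa* had 1964, 1951 and 1488 CPM against 4385, 4098 and 5633 CPM, and their activator *Ciita* had 26.7, 22.6 and 17.2 CPM against 46.8, 50.4 and 61.6 CPM. Only *Ctss*, the protease that trims the invariant chain, was higher in this group (0.89). The 12 markers of dendritic cells, which carry much MHC class II, summed to 594 to 834 CPM in classical monocytes and 298 to 427 CPM in late CMDMs. *Siglech*, which also stands in the plasmacytoid dendritic cell list, held 395, 209 and 276 CPM of these sums against 41.2, 43.5 and 26.5 CPM. Of the 12 markers 6 were lower, 2 were higher and 4 were not called. Of the co-stimulatory ligands *Cd80* and *Icosl* fell by 1.56 and 1.72. Of 15 MHC class I genes 8 were lower and 1 higher, which turned to none lower and 10 higher under the leukocyte scale, with *Tap1* at -0.83, and *B2m* was higher (0.46).

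Of 39 resolution and repair genes 17 were higher and 11 lower. *Pdgfc*, a growth factor for fibroblasts, had 48.5, 41.2 and 60.9 CPM in late CMDMs and 5.85, 4.89 and 6.13 CPM in classical monocytes (3.16, SE 0.24, adjusted p = 1.39e-07). *Mmp9*, a gelatinase, had 36.8, 38.6 and 41.0 CPM against 4.49, 4.56 and 5.69 CPM, and *Plau*, the urokinase that activates plasmin, had 355, 370 and 349 CPM against 82.6, 81.6 and 91.8 CPM. *Gdf15* and *Mmp13* rose by 2.09 and 1.70. *Vegfa*, the angiogenic factor, went down from 67.6, 79.2 and 156 CPM to 30.3, 26.9 and 33.3 CPM, and *Tgfb1* had 303, 266 and 277 CPM against 428, 455 and 523 CPM (-0.73, SE 0.13), which turned to 0.05 under the leukocyte scale. The matrix genes *Sparc* and *Mmp2*, at -2.86 and -2.62, are also known products of fibroblasts, whose markers moved the same way, and the part of fibroblasts was not tested.

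Of 49 transcription factors 17 were higher and 16 lower. *Maf*, a factor of tissue macrophages (chromosome 8, 115682942 to 115707794), had 370, 337 and 360 CPM against 67.2, 83.8 and 82.0 CPM (2.19, SE 0.10, adjusted p = 3.27e-10). *Bhlhe41*, *Atf3* and *Klf2* had log2 fold changes of 1.86, 1.46 and 1.27. *Runx3* and *Irf8* were lower, with 38.2, 42.4 and 54.3 CPM against 206, 194 and 266 CPM and with 145, 111 and 146 CPM against 456, 296 and 421 CPM. *Runx3* is also a factor of NK and T cells, and *Irf8* stands in the plasmacytoid dendritic cell list.

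**Figure D5:**
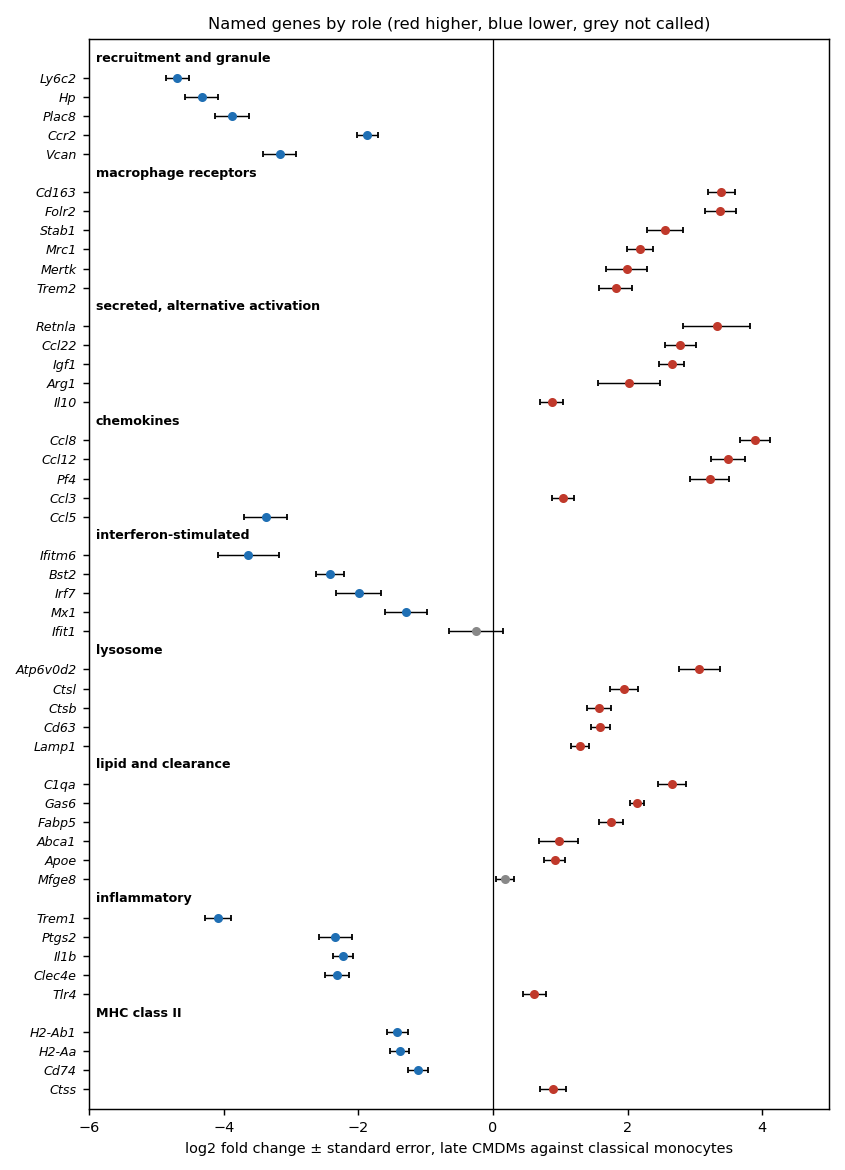
Log2 fold change with its standard error for named genes by role, late CMDMs against classical monocytes under TMM; red is called higher, blue called lower and grey not called. Macrophage receptors, lysosome genes and most chemokines lie right of 0, and recruitment, most inflammatory and most MHC class II genes lie left of it. The inflammatory gene *Tlr4* lies right of 0, and *Ifit1* and *Mfge8* are grey.

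Of 90 genes of oxidative phosphorylation 57 were higher in late CMDMs and 4 lower, with a median log2 fold change of 0.657. Higher calls were the most frequent in each complex measured, with 30 of 49 higher in complex I, 5 of 8 in complex III, 11 of 16 in complex IV and 11 of 17 in ATP synthase. Members were taken by the start of their symbol, so that not all of them encode subunits. Complex I here also holds the *Ndufaf* assembly factors and the processed pseudogenes *Ndufa11b*, *Ndufb4c* and *Ndufs6b*, and complex IV the processed pseudogene *Cox6c2*. These pseudogenes were all called higher, and they could share reads with related genes. *Ndufa1* had 84.3, 78.8 and 101.5 CPM against 23.5, 25.2 and 20.2 CPM, *Uqcr11* had 82.8, 81.2 and 83.3 CPM against 31.6, 37.8 and 33.7 CPM, and *Cox7b* had 100.99, 103 and 114 CPM against 52.8, 57.7 and 45.4 CPM. *Cox6a2*, at 2.15, 2.01 and 2.90 CPM against 20.5, 13.7 and 11.6 CPM, was the exception in complex IV and stands in the plasmacytoid dendritic cell list. Transcript length moved with these results. Of all protein-coding genes tested, 34.5% of the 715 with a longest transcript under 1000 bases were called higher and 12.9% lower, with a median of 0.253, compared with 19.8% and 21.7% of the 5973 genes of 4000 bases or more. Among the oxidative phosphorylation genes 36 of 45 under 1000 bases were higher, and 20 of 43 longer ones, and the part of length in the result was not tested. Only 1 of the 84 lysosome genes was that short.

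Of 88 ribosomal protein genes 25 were higher and 12 lower. The short *Rps29* had 195, 181 and 161 CPM against 78.0, 98.1 and 78.8 CPM, and *Rplp0* had 758, 790 and 747 CPM against 1168, 1278 and 1132 CPM (-0.64), which turned to 0.15 under the leukocyte scale. The number of ribosomal protein genes called lower was between 5 and 26 when single libraries were left out, with 26 without classical monocyte replicate 3 and 5 to 7 without any other single library, and 16 genes were higher without classical monocyte replicate 3. Of 22 glycolysis genes 9 were lower and 6 higher, which turned to 2 lower and 14 higher under the leukocyte scale. The lactate exporter *Slc16a3* had 34.1, 29.2 and 33.5 CPM against 121, 165 and 233 CPM, the glucose importer *Slc2a1* fell by 1.26, and *Pfkfb3*, which makes an activator of glycolysis, rose by 1.07. Of 38 cell cycle genes 8 were higher, or 21.1%, and 3 lower, or 7.89%. The proliferation marker *Mki67* had 128, 128 and 153 CPM against 63.8, 75.6 and 93.8 CPM (0.81), and *Kif23* and *Ccnd3* were lower at -1.40 and -1.31. Without late CMDM replicate 2, 4 cell cycle genes were higher, and without classical monocyte replicate 3, 5.

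The other fractions stood at different points for these genes. *Ccl8* had a mean of 9436 ± 1454 CPM (SD, n = 3) in late CMDMs and 635 ± 20.9 CPM in classical monocytes, and its mean was 2995 CPM in early CMDMs and 738 CPM in resident-like macrophages. For *Cd163* the means were 1015 CPM in late CMDMs and 96.8 CPM in classical monocytes, with 400 CPM in the early and 246 CPM in the resident-like fraction. *Retnla* and *C1qa* had means of 1131 CPM and 1032 CPM in late CMDMs, compared with 1192 CPM and 1090 CPM in the resident-like fraction. *H2-Ab1* was lowest in early CMDMs, at 1268 CPM, and highest in resident-like macrophages, at 11151 CPM. The mean of *Il1b* was 191 CPM in early CMDMs and 1050 CPM in the resident-like fraction. *Hp* had means of 18.5 CPM in early CMDMs and 10.3 CPM in the resident-like fraction. These levels come from the same normalization, and differences with these fractions were not tested here. Keratinocyte markers summed to between 23570 and 37370 CPM in early CMDMs, compared with 4316 to 5148 CPM in late CMDMs. The leukocyte genes summed to between 1130 and 1806 CPM in early CMDMs, compared with 2471 to 2815 CPM in late CMDMs. The part of this in the low early CMDM levels, such as those of *H2-Ab1* and *Il1b*, was not tested.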

How the data were processed

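The deposited values were raw counts per gene symbol. Per the labels and methods, the authors used cutadapt 4.1 for trimming and Bowtie2 2.4.5 for mapping on one strand to the reference RNA of GRCm38 and summed counts by symbol, so that reads of paralogs could be split. All 12 libraries entered edgeR 4.0.16 (R 4.3.3) with TMM normalization, filterByExpr by fraction and robust quasi-likelihood fits, and late CMDMs were contrasted with classical monocytes at a Benjamini-Hochberg adjusted p under 0.05. CPM used TMM-scaled library sizes. The biological coefficient of variation was 13.2%. All columns of the table were used, with 0 left over. No library was a duplicate, since replicates differed beyond sampling noise (chi-square over degrees of freedom from 4.24 to 21.9).

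Genes named were the gate genes, the 12 called genes with the largest change in each direction, without overlap, at 50 CPM or more and with no predicted-gene symbol, up to 3 called genes per list, role and direction at 10 CPM or more, the cell type markers and the Mo-Mac genes that the study names. Others are marked in the text, and some results are not reported here. Members and lists were chosen with earlier results of these data known. Positions and transcript lengths come from GENCODE M21 of GRCm38, and promoters from RefSeq (GRCm38.p6). Alternatives were DESeq2 1.42.0, other normalizations and filters, the 6 libraries alone, a replicate block, stricter thresholds and leaving out each library.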

Additional observations from a re-analysis of the deposited data

How the results depend on the processing

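The counts of calls (7869 genes, 4000 higher and 3869 lower) stayed within 1.5 times under DESeq2 (7756), RLE size factors (7870), DEGES (7919), library size alone (7914), other filters on low counts (7085 to 7874), the 6 libraries alone (7454) and an adjusted p under 0.01 (5466). With library size alone the small excess of higher calls turned, to 3662 higher and 4252 lower. Leaving out single libraries gave 6458 to 7461 calls. Scaling by 10 leukocyte genes gave 15057 calls, 13936 higher and 1121 lower, of which 5511 were shared, since it raised the median gene. A log2 fold change of at least 1 left 3149 genes, 1474 higher and 1675 lower, by construction. Same-numbered libraries were weakly related (correlations of deviations 0.02, 0.12 and 0.06), and not every library was closest to its own number, so that the numbers were not taken to pair the libraries. The fit with a replicate block gave 8440 calls and 41 interferon-stimulated genes lower, compared with 35. Leaving the genes of the sorted proteins out of the lists, chosen after seeing the data, kept each count within 1.5 times.

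Of 164 genes tried, 8 reversed. Under the leukocyte scale these were *Fcgr1* (0.51), *Itgam* (0.64), *Ifit1* (0.52), *Ifit2* (0.29), *Ifit3* (0.0692), *Stat6* (0.51), *Tgfb1* (0.0543) and *Rplp0* (0.15). Leaving out single libraries gave -0.49 to 0.0254 for *Fcgr1* and -0.61 to 0.18 for *Ifit1*, the highest without classical monocyte replicate 3 and replicate 1. Under the leukocyte scale *Cd74*, *Gm2a*, *Mx1*, *Slc11a1*, *Spic* and *Tap1* missed the threshold and *Abcg1*, *Hilpda*, *Mfge8* and *Siglecf* passed it. Without a filter *Abca1* and *Stat6* missed it, as did *Stat6* in the 6 libraries alone. Whether the scale or the fractions account for this was not tested. The precision is limited by 3 libraries a fraction.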

Other observations

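Across the interferon-stimulated genes the second library was often the lowest of its fraction, a pattern noticed after the values were seen. Replicate 2 was the lowest of late CMDMs in 37 of 68 genes, the lowest of classical monocytes in 48 and the lowest of both in 28, or 41.2%. Over all 22118 genes it was the lowest of both fractions in 2969, or 13.4%. The labels do not say what same-numbered libraries share, and the cause was not tested.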
